A study of Mus musculus with 6 samples.

Results

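The clustered protocadherin genes were taken as all genes of mouse chromosome 18 whose symbols start with Pcdha, Pcdhb or Pcdhg. They numbered 58 of 47042 autosomal genes in the RefSeq gene table: 14 alpha, 22 beta and 22 gamma genes. Their starts and ends were read on mm10, where the alpha cluster runs from 36930285 to 37188897, the beta cluster from 37264998 to 37521419 and the gamma cluster from 37661775 to 37841873. The locus, with 20000 bp added on either side, held 652 of the 1683697 windows of 1000 bp with a value in every sample. DNA methylation came from whole-genome bisulfite sequencing of tagmented DNA, in which a transposase cuts and tags DNA and bisulfite then converts unmethylated cytosines. The cells were endothelial cells sorted from the lungs of wild-type mice, in 3 samples titled Aged and 3 titled mAdu. The design names 18 months and 8 months of age without tying them to titles, and aged was taken as 18 months and mAdu as 8 months. No genotype other than wild type and no treatment is named for either group. The labels do not tie samples to animals, and p-values here rest on variation among samples that could be technical in origin. Levels are the authors' mean methylation of a window, given in percent. Read depth is unknown, and a level in sorted cells is an average over cells, so partial methylation of every cell and full methylation of some cells cannot be told apart.

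Clustered protocadherins are cell-surface adhesion proteins related to cadherins and are best known from neurons, where combinations of isoforms give each cell an identity and let its branches recognise and avoid one another. Each alpha or gamma gene has its own promoter and a large variable first exon, which encodes the extracellular part and is spliced to constant exons shared by the whole cluster. Beta genes consist of a variable exon alone. In neurons, CTCF and cohesin bring distant enhancers to the promoters that are chosen, and promoters that stay silent carry DNA methylation. The C-type genes Pcdhac1, Pcdhac2, Pcdhgc3, Pcdhgc4 and Pcdhgc5 lie at the ends of the alpha and gamma clusters and are not subject to this stochastic choice in most neurons.

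Marker genes were checked first. At the less methylated end of each gene, 8 endothelial markers had a median level of 2.99% (0.911% to 12.4%), against 65.2% (46.5% to 77%) for 5 haematopoietic markers. The median was 21.9% for 5 epithelial (1.51% to 62.3%), 13% for 5 mesenchymal (1.66% to 57.3%) and 31.7% for 5 neuronal markers (23% to 37.6%). The epithelial and mesenchymal ranges thus overlapped the endothelial one. Some markers of other cells were as low as endothelial markers, among them Nkx2-1 (1.51%), Tbx18 (1.66%) and Pdgfra (2.73%). Over its whole span Nkx2-1 was at 1.89%. Mean levels over all autosomal windows lay between 73.1% and 73.7% in the aged samples and between 73.3% and 73.6% in the mAdu samples.

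Variable first exons of the protocadherin genes were mostly partly methylated in lung endothelium. Over the stretch used here a single gene lay under 20%, and 2 did over a stretch of 1500 bp. A first exon region was the stretch of 2500 bp from the gene's start, since the gene table gives no exons. The 2 or 3 windows whose centre lies in it were averaged. Where a gene starts past the middle of a window, that start window, which mostly has a lower level, is left out and 2 windows remain. Regions of 2 and of 3 windows are thus not quite the same measure, and rankings of genes carry that limit. Of 58 regions, 55 lay between 40% and 75%, with a median of 60.1%. The median was 58.6% in the alpha cluster (range 35.1% to 68.5%), 64.1% in the beta cluster (53.7% to 74.8%) and 59.7% in the gamma cluster (1.33% to 77.4%). Across all 88389 measured gene edges, 2 for each gene, the median was 72.2%, and the less methylated edge of 20233 protein-coding genes had a median of 46.3%. The levels of the 58 regions were similar from sample to sample. Pearson's r across the genes was between 0.957 and 0.978 in the 15 pairs of samples, as a description, since the regions of a gene cluster are not independent. Pcdhgc3, far below the rest, weighs heavily in these values, and ranks were not compared.

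**Figure D1:**
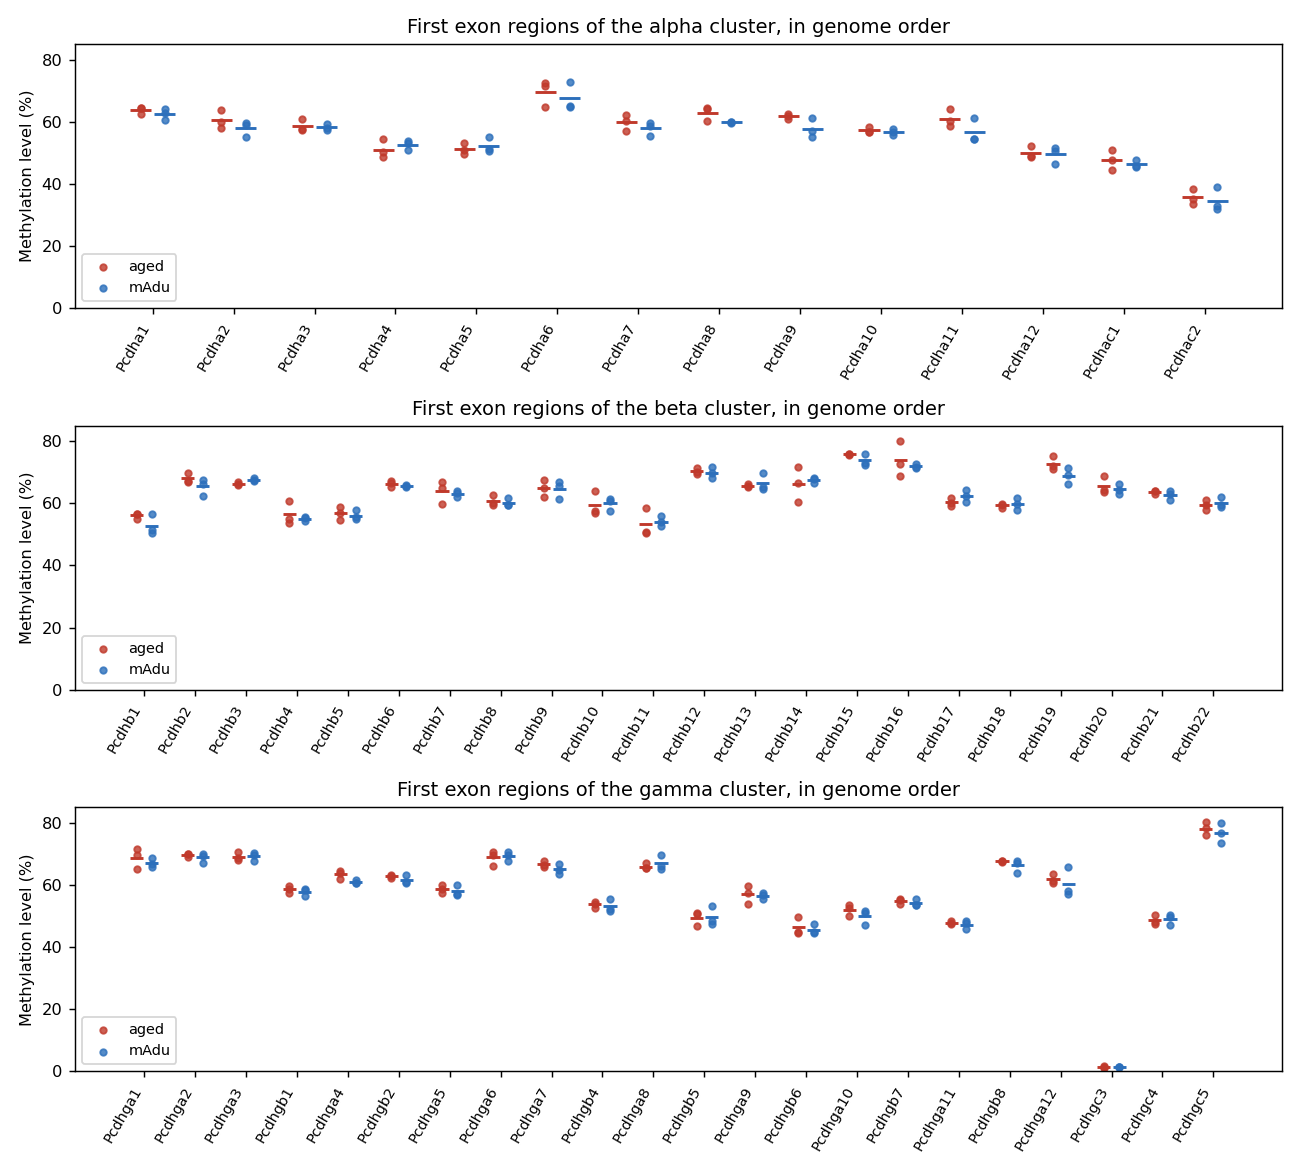
Methylation level (%) of the first exon region of each protocadherin gene, in genome order within the alpha, beta and gamma clusters. Points are single samples, bars are means of 3 aged and 3 mAdu samples. Pcdhgc3 sits near 0 in all 6 samples, Pcdhac2 is the next lowest at 35.1%, and Pcdhgc5 is the highest at 77.4%.

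The lowest first exon was that of Pcdhgc3, a gamma C-type gene that promotes dendrite branching in cortical neurons (gene 93706, chromosome 18, 37806410 to 37841873). Its region had 1.3%, 0.969% and 1.61% in the aged samples and 1.31%, 1.45% and 1.36% in the mAdu samples. The groups overlapped, and every sample was within a point of the others. This level is lower than that of all but 0.743% of gene edges. All 3 windows from 37806001 to 37809000 were low, at 0.588%, 0.559% and 2.85% on average over samples, while the window before them (37805001 to 37806000) stood at 52.4%. Of the 58 first exon regions it was the only one under 20%, a level under which 6.95% of all gene edges fall.

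Pcdhac2 and Pcdhgc4 were unmethylated at the start but methylated further into the exon. Pcdhac2, an alpha C-type gene that spaces the axons of serotonergic neurons (gene 353237, 37143678 to 37187663), had 0.859%, 1.88% and 0.618% in the aged samples and 0.423%, 0.97% and 1.21% in the mAdu samples in the window that holds its start. The following windows, which make up its first exon region, averaged 6.1% and 64.1%, and the region 35.1%. Pcdhgc4, a gene needed for the survival of interneurons (gene 93707, 37815079 to 37841873), had 1.34%, 1.36% and 0.581% in the aged samples and 2.41%, 0.285% and 0.981% in the mAdu samples at its start. Its following windows averaged 58.3% and 87%, and its region 48.8%. In both genes the groups overlapped at the start window.

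The other C-type genes did not share this low start. Pcdhac1 (gene 353236, 37090136 to 37187657) had a start window of 33.3% on average and a region of 44.5%, 50.8% and 47.6% in the aged samples and 45.8%, 47.8% and 45.3% in the mAdu samples. Pcdhgc5, whose protein binds a GABA receptor subunit at synapses (gene 93708, 37819546 to 37841873), was the most methylated of all 58 regions. It had 80.1%, 78.3% and 76% in the aged samples and 76.8%, 73.4% and 80% in the mAdu samples, and its start window, at 66.9%, was the highest of 57 measured start windows. The mean of the 5 C-type regions minus that of the 31 other alpha and gamma genes was -17.8, -16.7 and -17.8 points in the aged samples and -18.8, -16.2 and -16.1 points in the mAdu samples. The C-type genes nevertheless ranged from the lowest to the highest region of the locus, so this mean difference does not describe each of them.

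At nearly all genes methylation dipped at the start. Start windows, available for 57 genes, had a median of 39.3% and were lower than the gene's own first exon region in 14 of 14 alpha, 20 of 21 beta and 22 of 22 gamma genes. Since the start window often covers part of the region, this count is a description. The median gap was -19.4 points in alpha, -20.5 in beta and -21.2 in gamma genes. Between 1 and 2 kb past the start, the mean over alpha genes was 66.6% in aged and 65.3% in mAdu samples, against 41.6% in aged and 39.9% in mAdu samples in the first kb. For gamma genes these means were 67.1% in aged and 66.4% in mAdu samples, against 41.9% in aged and 41% in mAdu samples. In the beta cluster the lowest point was the kb before the start, at 47.8% in aged and 46.3% in mAdu samples. Only Pcdhac2, Pcdhgc3 and Pcdhgc4 had start windows under 20%, and the start windows of the 52 genes that are not C-type lay between 22.4% (Pcdhb2) and 66.3% (Pcdhb17).

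**Figure D2:**
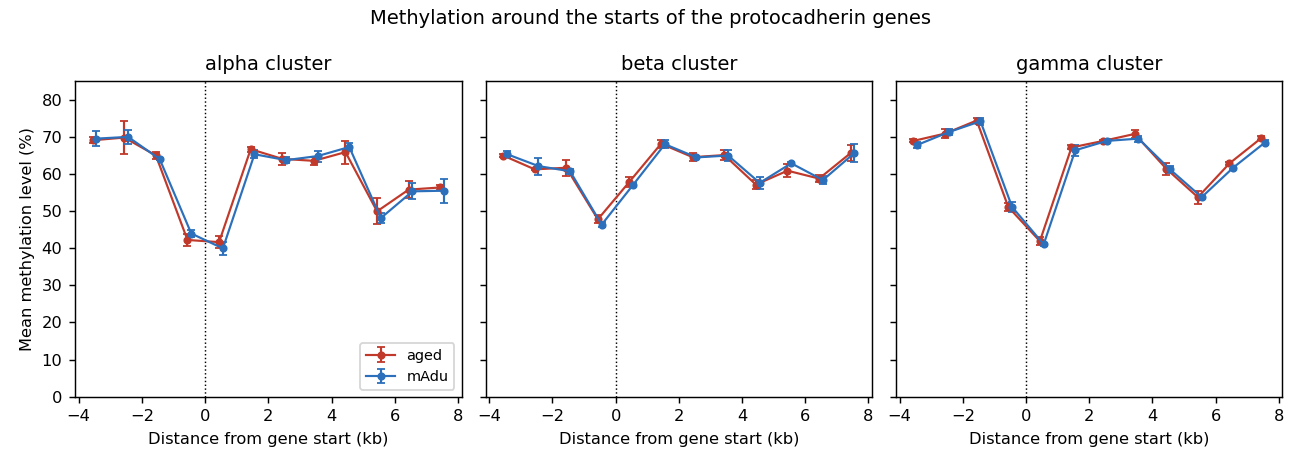
Mean methylation level (%) by distance from the gene start in bins of 1 kb, averaged over the genes of each cluster. Points are means of 3 aged and 3 mAdu samples and bars their SD over samples. Both groups dip around the start in each cluster, and the shallower dip near 5 kb in the gamma cluster falls where the next gene often begins.

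Within the alpha cluster the genes ahead of the C-type pair were close to one another. The 12 other alpha genes ranged from 49.7% at Pcdha12, the last of them (gene 192164, 37020230 to 37187657), to 68.5% at Pcdha6 (gene 12937, 36967625 to 37188897). The region of Pcdha12 averaged 3 windows with its start window, and that of Pcdha6 averaged 2 without it. Pcdha1, the first gene of the locus (gene 116731, 36930285 to 37187657), had 64.3%, 64.4% and 62.5% in the aged samples and 64.2%, 60.5% and 62.6% in the mAdu samples. Pcdha8 averaged 61.4% over all samples. The region of Pcdha6 varied more between samples, with 72.4%, 64.9% and 71.4% in the aged and 72.8%, 64.9% and 64.7% in the mAdu samples.

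Beta genes, each a single exon, had an SD over genes of 5.81 points, against 8.21 in the alpha and 15.1 in the gamma cluster. Without the C-type genes the SD was 5.23 points in the alpha and 7.74 in the gamma cluster. Their lowest regions were those of Pcdhb11 (53.7%), Pcdhb1 (54.5%) and Pcdhb4 (55.8%), and their highest those of Pcdhb15 (74.8%), Pcdhb16 (72.9%) and Pcdhb19 (70.8%). Pcdhb11 and Pcdhb4 averaged 3 windows with the start window included. Pcdhb1, Pcdhb15, Pcdhb16 and Pcdhb19 averaged 2 without it, so this ranking depends in part on where windows fall. Pcdhb1 opens the cluster (gene 93872, 37264998 to 37267454) and Pcdhb22 closes it (gene 93893, 37518353 to 37521419, 59.7%). Pcdhb15 (gene 93886) had 75.6%, 75.9% and 75.8% in the aged samples and 72.5%, 76% and 72.9% in the mAdu samples, with overlap of the groups. The last 2500 bp of the beta genes had a median of 66.2% (54.5% to 78.1%), and they were above the first exon region in 11 of 22 genes. In Pcdhb1, Pcdhb8, Pcdhb15 and Pcdhb21, which are short, both stretches hold the same windows. These genes could not be above, so 11 of 22 is not an even split.

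In the gamma cluster the A and B subfamilies, which are interspersed along the chromosome, differed in mean level. The 12 Pcdhga regions had a median of 64% and the 7 Pcdhgb regions a median of 54.5%. The mean of the B minus that of the A regions was -6.13, -6.33 and -6.36 points in the aged samples and -6.16, -6.81 and -5.44 points in the mAdu samples, lower in 6 of 6 samples. All 6 samples measure the same genes, so their agreement does not bear on variation between genes, whose SD was 7.21 points in B and 7.36 in A. The ranges overlapped widely, from 46% to 66.9% in B and from 47.5% to 69.3% in A genes. Pcdhga1, Pcdhga2 and Pcdhga3 open the cluster ahead of any B gene, and subfamily was not separated from position. The lowest after Pcdhgc3 were Pcdhgb6 at 46% (gene 93703) and Pcdhga11 at 47.5% (gene 93723), and the highest below Pcdhgc5 were Pcdhga2 at 69.3% and Pcdhga3 at 69.1%. Pcdhgb8, which RefSeq lists as a transcribed pseudogene, had the highest B level. Pcdhga1, the first gamma gene (gene 93709, 37661775 to 37841870), averaged 67.8%.

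The constant exons of the alpha and gamma clusters were studied as intervals that also hold introns, from 3000 bp after the last variable gene's start to the shared end. The alpha interval (37146678 to 37188897, 34 windows) had 62.8%, 65.3% and 63.6% in the aged samples and 63.1%, 62.4% and 64% in the mAdu samples. The gamma interval (37822546 to 37841873, 18 windows) had 57.9%, 56.6% and 59.3% in the aged and 59.7%, 59% and 57.7% in the mAdu samples. In both, the groups overlapped. Over the last 5000 bp before the shared end the age differences turned, to -0.847 points in alpha against 0.704 over the whole interval, and to 0.855 points in gamma against -0.832.

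Low windows also lay away from the variable starts. Windows under 20% made up 19 of the 652 (2.91%), where 2.89% of all windows are that low, and they formed 13 runs. Besides the starts of Pcdhac2, Pcdhgc3 and Pcdhgc4, runs lay inside the alpha constant interval (37178001 to 37179000, 6.98%), 28104 bp past the alpha cluster (37217001 to 37219000, 7.46%) and 5455 bp past the start of Pcdhgc5 (37825001 to 37826000, 1.24%). Enhancers of the alpha genes are known between the last constant exons and downstream of the cluster in mouse, but their positions were not available here and were not matched to these windows. The run past the alpha cluster had 7.76%, 7.53% and 7.68% in the aged samples and 7.29%, 7.85% and 6.63% in the mAdu samples. The window past Pcdhgc5 had 0.451%, 2.67% and 0.0993% in the aged samples and 0.0882%, 2.73% and 1.39% in the mAdu samples. In each of the 13 runs the groups overlapped. At the other extreme, the highest windows lay 7.92 and 9.92 kb past the start of Pcdhga12 (96.9% and 95.1%) and, between the beta and gamma clusters, in Taf7 (95.8% and 95.3%) and 1 window nearby (95.5%). Taf7 encodes a subunit of the general transcription factor TFIID.

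**Figure D3:**
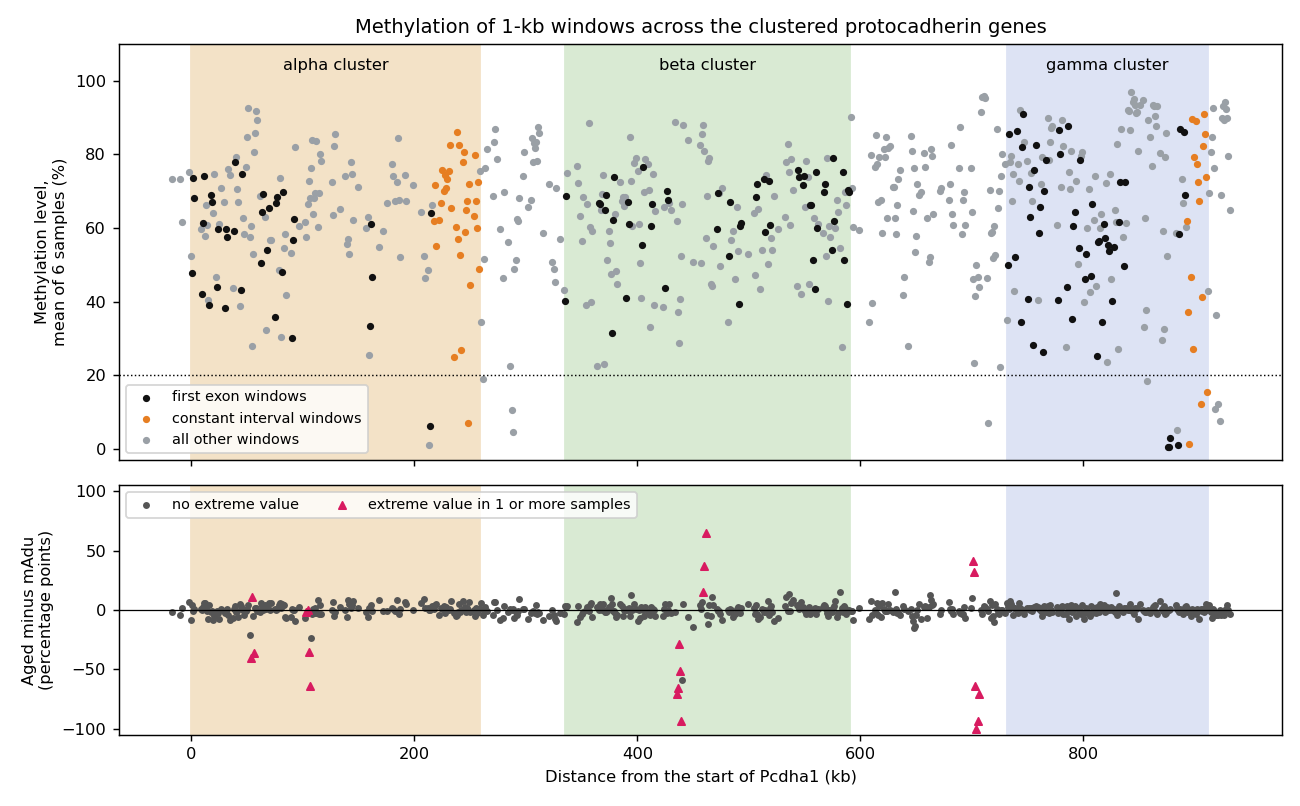
Upper panel: methylation level (%) of each 1-kb window, mean of all 6 samples, by distance from the start of Pcdha1 in kb, with cluster spans shaded and a dotted line at 20%. Lower panel: aged minus mAdu difference in percentage points. Most windows lie near 0 in the lower panel, and the 9 with the largest differences hold an extreme value and lie in short runs outside the first exons.

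As a stretch, the locus was less methylated than most of the genome. Its 10 intervals of 100 kb had levels from 61.4% to 67.2%, which placed them between the 2.5th and the 10.9th percentile of 24009 such intervals, whose median was 73.3%. The share of windows above 80% was 17.2% in the locus, and the median window stood at 66.2%, against 77.9% over all windows.

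No first exon region passed the test for age. Each of the 88389 gene edges was tested with limma on the percent scale, with Benjamini-Hochberg adjustment over all of them and a threshold of 0.05, and 0.0158% of edges passed. Among the 58 regions 0 passed, and 0 had an unadjusted p under 0.05, where 4.87% of all edges did. The smallest adjusted limma p was 0.97. Differences ranged from -2.02 to 4.31 points, and the half-width of their 95% interval had a median of 4.35 points, so that 57 of 58 intervals lay within 10 points of 0 and 23 within 5. The absence of calls does not show equal levels, since changes larger than these half-widths could also miss the threshold after adjustment over all edges.

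The aged mean was nevertheless the higher in 42 of 58 regions (72.4%), where it was higher at 49.4% of all edges. By cluster these were 12 of 14 alpha, 14 of 22 beta and 16 of 22 gamma genes, with median differences of 1.31, 0.564 and 0.668 points, against -0.0289 points over all edges. The mean of all 58 regions was 59.4%, 60.4% and 59.5% in the aged samples and 59.8%, 58.5% and 58.5% in the mAdu samples. The groups overlapped, because mAdu replicate 1 lay among the aged samples. The count of 42 was between 37 and 46 when single samples were left out. The alpha first exons averaged 56.5% ± 0.84 in aged and 55% ± 1.54 in mAdu samples, the beta exons 63.9% ± 1.09 in aged and 63.3% ± 0.464 in mAdu, and the gamma exons 57.8% ± 0.701 in aged and 57% ± 0.882 in mAdu (SD, n = 3 each). Without aged replicate 2 the beta difference was -0.0404 points in place of 0.565. When the region was moved to the promoter side, 1000 bp outside to 500 bp inside the start, the alpha difference was -0.34 points in place of 1.44. On that side the aged mean was higher in 36 regions (63.2%, against 49.9% of all edges). Among start windows it was higher in 36 of 57. Neighbouring regions are not independent, so these counts are descriptions.

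The genes with the smallest p were among those higher in aged samples, and none passed. Pcdha9 (gene 192161) had 61.7%, 62.6% and 60.7% in the aged samples and 61%, 56.9% and 55.1% in the mAdu samples, a difference of 3.99 points (SE 1.92, limma adjusted p = 0.97) with overlap. Pcdha8 (gene 353235) had 60.3%, 64.1% and 64.3% in the aged and 59.7%, 60% and 59.8% in the mAdu samples, without overlap (3.07 points, limma adjusted p = 0.97). Pcdhga4 (gene 93712) had 64.5%, 61.9% and 64% in the aged and 61.5%, 60.8% and 60.6% in the mAdu samples, also without overlap (2.48 points). These 2 genes made up 3.45% of the regions, and 4.72% of all edges had such a separation with aged higher. In the opposite direction 1 region was separated, that of Pcdhb3 (1.72%, against 5.38% of all edges). Pcdha11, Pcdhb19, Pcdhb1, Pcdhb2, Pcdhga10 and Pcdhga7 had differences of 4.31, 3.83, 3.28, 2.57, 1.97 and 1.59 points, with overlapping groups.

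**Figure D4:**
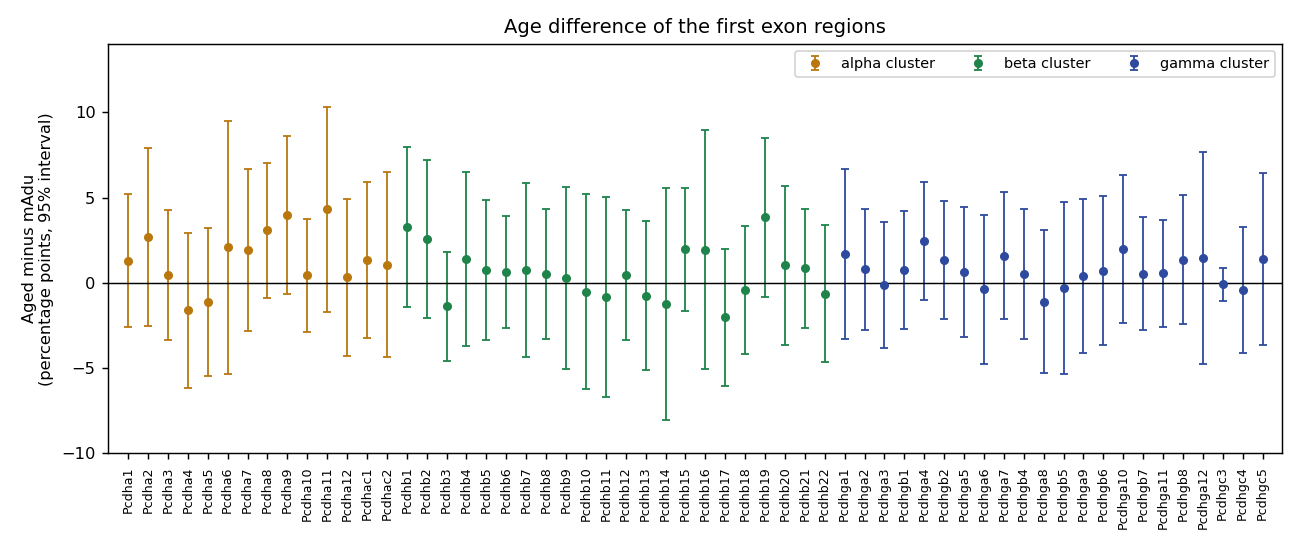
Aged minus mAdu difference of the first exon region of each of the 58 genes in genome order, in percentage points. Points are differences of the means of 3 samples and bars the 95% interval from limma. All intervals include 0, 42 differences are above 0, and that of Pcdhgc3 is the narrowest.

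Among the windows of the locus, 3 passed for age, all lower in aged samples and none in a first exon. Of all windows 0.0211% passed, and 0.0122% did so with aged lower. The strongest lay in the gap between the beta and gamma clusters (37634001 to 37635000), with under 0.01% in all 3 aged samples and with 100%, 100% and 99.6% in the mAdu samples (-99.9 points, limma adjusted p = 5.88e-05). The next window (37635001 to 37636000) was under 0.01% in all aged samples, against 100%, 100% and 80.1% in the mAdu samples (limma adjusted p = 0.00526). The other lay 14.2 kb past the start of Pcdhb8 (37369001 to 37370000), with 17.3%, under 0.01% and under 0.01% in the aged samples and 100%, 100% and 96.3% in the mAdu samples (limma adjusted p = 0.00354). Each held values within 0.01 points of 0% or of 100%, called extreme here and rounded to 100% above. On the logit scale 1 of the 3 passed. Without aged replicate 1 the count was 5.

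Windows with an extreme value made up 21 of the 652 (3.22%, against 1.72% of all windows), in 6 runs, and none lay in a first exon or a constant interval. The runs were not uniform by group. In the window from 37631001 to 37632000, aged replicates 1 and 3 were at 100% and aged replicate 2 was under 0.01%, against 76.7% in mAdu replicate 1 and under 0.01% in mAdu replicates 2 and 3. In the run beside Pcdhb9 (37389001 to 37392000) the direction was the opposite, with means of 94.7%, 100% and 89.9% in the aged samples and 57.6%, 43.8% and 66.4% in the mAdu samples. The lowest of the values in the 3 windows that passed is listed as 5.05e-66%, smaller than any nonzero share of reads can be. Such entries may therefore not be measured fractions, and neither the coverage behind them nor how they were made is known. The differences and p-values of these windows carry that limit.

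The windows with the next smallest p did not pass. Lower in aged samples were the window beside the Pcdhb8 call (37370001 to 37371000, 37.2% in aged and 95.8% in mAdu samples) and one 11.5 kb past the start of Pcdhb1 (37276001 to 37277000), with 72.5%, 73% and 70.3% in the aged and 83.1%, 81.6% and 81.1% in the mAdu samples. Higher in aged samples were the windows starting at 37391001 (89.7% in aged and 24.7% in mAdu) and at 37201001 (87% in aged and 80% in mAdu). So was one 2.3 kb before Pcdhgb8, starting at 37759001, with 76.6%, 61.8% and 68.4% in the aged and 55.3%, 53.1% and 54.2% in the mAdu samples. The others started at 37466001 (81.8% in aged and 68.5% in mAdu) and 37306001 (52.6% in aged and 42.6% in mAdu), the last of them just before Pcdhb4. Their limma adjusted p was 0.978. An unadjusted p under 0.05 was found in 43 windows (6.6%, against 4.67% of all). The aged mean was the higher in 330 of the 652 windows (50.6%, against 48.9% of all). Groups did not overlap with aged lower in 43 windows (6.6%, against 5.28% of all) and with aged higher in 32 (4.91%, against 4.76%).

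Over the whole locus the mean level was 62.7%, 63.1% and 62.4% in the aged samples and 64.1%, 63.5% and 63.7% in the mAdu samples, a difference of -1.02 points without overlap. The windows with extreme values carried most of this difference. Without these 21 windows the samples stood at 63.4%, 64% and 63.2% in aged and 63.6%, 63.7% and 63.5% in mAdu, and the difference was -0.0768 points with overlapping groups. The alpha span had 61.8% ± 1.45 in aged and 62.6% ± 0.684 in mAdu samples, the beta span 61.2% ± 0.951 in aged and 62.5% ± 0.712 in mAdu, and the gamma span, which holds no extreme value, 64.3% ± 0.596 in aged and 64% ± 0.117 in mAdu (SD, n = 3 each). Without extreme windows the alpha difference was 0.248 points in place of -0.775, and the beta difference -0.153 in place of -1.26. Between the alpha and beta clusters, where no window was extreme, the level was 61.4%, 61.4% and 62% in aged and 63.4%, 62.8% and 62.8% in mAdu samples, without overlap, and in the 20000 bp after the gamma cluster it was 65.1%, 67.3% and 67.3% in aged and 67.7%, 67.5% and 68.1% in mAdu samples, also without overlap. Such a separation with aged lower occurs in 5.84% of all intervals of 100 kb. These differ in length from both stretches and from the locus, so the share is not a background rate for them.

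**Figure D5:**
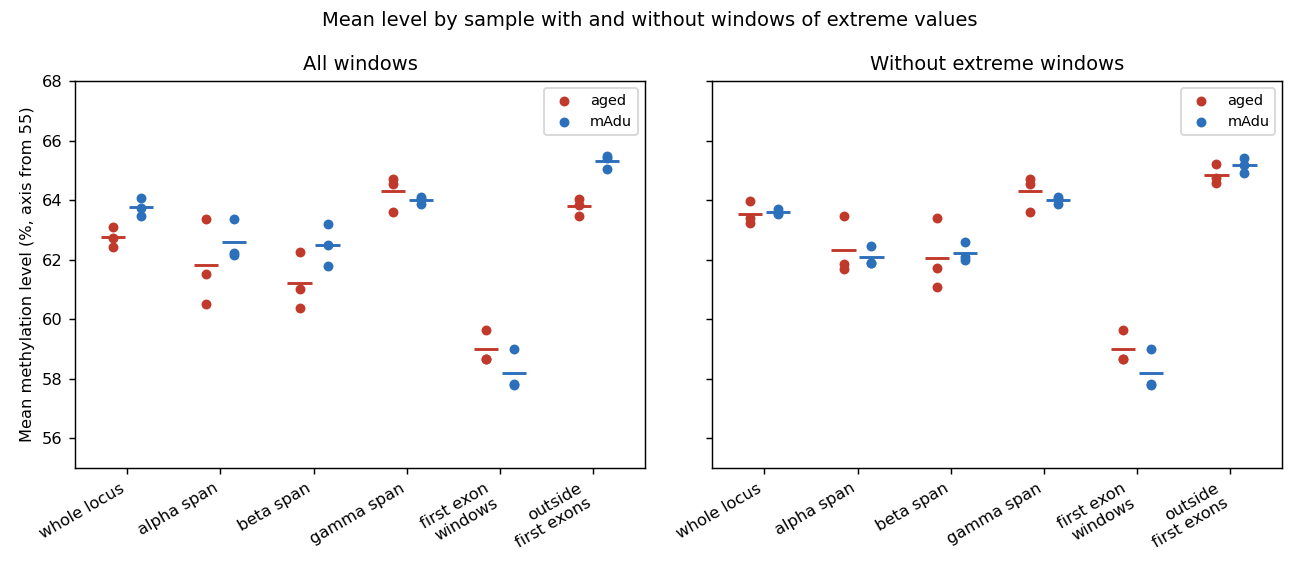
Mean methylation level (%, axis from 55) of the locus, the 3 cluster spans, the first exon windows and the windows outside first exons. Points are single samples and bars means of 3 aged and 3 mAdu samples, with all windows on the left and without windows of extreme values on the right. The gap between groups over the whole locus, -1.02 points, is -0.0768 points on the right, while the first exon windows are the same in both panels.

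By intervals of 100 kb, 0 of 10 passed with age, as did 0% of all 24009 intervals. An unadjusted p under 0.05 was found for 3 of the 10, against 4.56% of all intervals, and these had lower levels in aged samples without overlap. They were the intervals starting at 36900001 (62.1% in aged and 63.8% in mAdu samples), 37300001 (60.2% in aged and 63.9% in mAdu) and 37600001 (64.1% in aged and 67.1% in mAdu), with a limma adjusted p of 0.999. Each held windows with extreme values. Without those windows their differences were -0.596, -1.08 and 0.36 points, and the groups overlapped in all 3.

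Genes outside the clusters that share the family or regulate it showed no call either. Of 31 listed genes 29 lay on autosomes, and 0 of 29 passed at the less methylated edge, with 16 higher and 13 lower in aged samples and a median difference of 0.014 points. The 10 non-clustered protocadherins, which have no shared constant exons, had a median level of 4.73% (0.624% to 43.9%). This is the lower of both gene edges, a different measure from the first exon regions at the start of the clustered genes, so these levels are not set against each other. Pcdh1 was at 0.855% ± 0.587 in aged and 0.394% ± 0.0686 in mAdu samples, Pcdh7 at 0.725% in aged and 0.993% in mAdu, and Pcdh17 at 0.543% in aged and 1.24% in mAdu. Wapl, which releases cohesin from DNA, was at 1.56% in aged and 0.841% in mAdu. The highest edges were those of Axin1 (80.7% in aged and 82.8% in mAdu), a Wnt pathway scaffold that binds Pcdhgc3 in neurons, Nipbl (84.6% in aged and 77.6% in mAdu), the cohesin loader, and the DNA methyltransferases Dnmt1 (79.4% in aged and 76.2% in mAdu) and Dnmt3a (69% in both groups). At these 4 genes the edge may not hold a promoter in use. The Nipbl edge rests on 1 window, with single samples from 71.1% to 92.2% and overlapping groups. The smallest p-values were those of the kinase gene Ptk2b (2.55% ± 0.276 in aged and 3.76% ± 0.559 in mAdu), Dnmt3b, which methylates the clustered promoters in mouse embryos (14.7% ± 0.956 in aged and 12.8% ± 1.04 in mAdu), and the cohesin genes Smc3 (24.8% in aged and 26.9% in mAdu) and Rad21 (46.8% in aged and 44.4% in mAdu), all with a limma adjusted p of 0.97.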

How the data were processed

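Per the labels' protocols, 30 ng of DNA from sorted endothelial cells entered tagmentation-based bisulfite sequencing, with 3 libraries per sample. BWA 0.7.8 and mm10 are named, per the submitters' processing notes. For the CpG caller, a coverage filter or smoothing, nothing is given in those sources. The authors deposited the mean methylation fraction of each 1000 bp window for 6 samples, without coverage. Fractions were multiplied by 100 to percent. Only windows complete across the 6 samples were used (1683697 of 1684140).

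Gene positions came from RefSeq GRCm38.p6 (mm10 coordinates), without exons or strand, and the protocadherin clusters were read from left to right. The long predicted genes that join alpha to gamma exons (Gm37013, Gm38666 and Gm38667) are not members. A region is the unweighted mean of windows whose centre lies in it. Windows, gene edges and intervals of 100 kb were fitted by limma (version 3.58.1, R 4.3.3; group term, variance trend, Benjamini-Hochberg adjustment), and the code was tested on simulated data. There, changes were set only at features of intermediate mean level. A set change of 20 points passed at 0 of 100 windows, 48 of 100 gene edges and 93 of 100 intervals. With a change of 10 points these counts were 0, 3 and 83. Changes of this size in single windows of such level would mostly be missed. Features of low or high level were not covered by these counts. Members, lists and tests were chosen with earlier results of these data known. Named genes were the C-type genes, the ends of each cluster, and the 3 lowest, 3 highest and 3 with the smallest p per cluster. Named windows were the 5 lowest, the 5 highest and the 5 with the smallest p per direction. From the list of other genes the 4 lowest, 4 highest and 4 with the smallest p were named. Alternatives were other region definitions, a logit scale, equal sample means, a replicate block, removal of windows with extreme values, and each sample left out.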

Additional observations from a re-analysis of the deposited data

How the results depend on the processing

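Of 162 alternatives over 15 results, 151 stayed within the spread between samples or within 1.5 times the count. The 3 windows that passed became 1 on the logit scale and ranged from 3 to 5 without single samples. With windows of extreme values removed the count was 0. That was fixed in advance, since all 3 hold extreme values and were themselves removed, so it is no retest of them. Counts of first exon regions, of 100-kb intervals and of other listed genes that passed were 0 under every alternative run. Leaving out windows of extreme values gave -0.153 points for the beta span. On the promoter side of the start, the alpha first exon difference was -0.34 points, the C-type genes lay -18.9 points from the other alpha and gamma genes (-19 with windows weighted by overlap, -17.2 otherwise), and 2 regions were under 20%, as with 1500 bp inside the start. The last 5000 bp of the constant intervals gave -0.847 points in alpha and 0.855 in gamma; the cause was not tested. Intervals of 1 Mb and the count of 42 regions with a higher aged mean were examined after seeing the data, and 0 of the 1-Mb intervals passed. Those starting at 36000001 and 37000001 had differences of -0.374 and -0.872 points, without overlap of the groups. These differences lay at the 19.8th and 3.94th percentile of all such intervals (limma adjusted p = 0.998 for each). They were not refitted without windows of extreme values.

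Samples with the same replicate number did not deviate together over all windows (r of -0.0116, -0.0167 and -0.000645). An effect shared at few windows would not show in these values, so they cannot exclude a pairing. The main fit did not take the numbers to pair samples, and a replicate block was run as an alternative. With the replicate block 2 windows of the locus passed, against 3 without it, and no other count moved. Unknown read depth limits every single-window value.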

Other observations

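Genes that lie among the protocadherins without belonging to them also had low windows. The window over the right end of Taf7 (37644001 to 37645000) had 6.79%, 7.1% and 6.01% in the aged samples and 8.65%, 7.32% and 6.55% in the mAdu samples, beside windows inside the gene above 90%. Beyond the gamma cluster, 2 low runs lay in Diaph1, a formin that nucleates actin filaments. The one at 37848001 to 37849000 had 6.16%, 11.6% and 9.4% in the aged samples and 14.9%, 12.1% and 11.6% in the mAdu samples, and that at 37851001 to 37853000 had 6.08%, 10.9% and 9.34% in the aged and 9.55%, 8.59% and 14.6% in the mAdu samples. In each of these the groups overlapped.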
